A study of Homo sapiens with 16 samples.

Results

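Hepatocyte identity transcription factors are the DNA-binding proteins that keep the liver's own genes switched on. The set described here was chosen by name, as the probe sets whose platform gene symbol was one of 8 factors: FOXA1, FOXA2, HNF4A, HNF4G, NR1H4, NR5A2, ONECUT1 and PROX1. Of these 8 genes, 6 had a probe set under a single symbol in the annotation used, with 10 probe sets between them out of 22215 outside the controls, and the 6 genes stood among 11963 named genes. HNF4A and NR1H4 were not analysed here.

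The arrays measured RNA from HepG2, an established human hepatoma cell line that makes many of the plasma proteins of a hepatocyte. All cells carried an adenovirus: one virus expressed GPI-PLD, glycosylphosphatidylinositol-specific phospholipase D, a secreted enzyme that cuts lipid-anchored proteins off membranes, and the control virus expressed LacZ, bacterial beta-galactosidase. The groups were GPI-PLD cells at 12 h, LacZ cells at 12 h, GPI-PLD cells at 6 h and LacZ cells at 6 h, with 4 arrays in each and 16 in all. No group without virus was analysed here. What adenovirus itself did is shared by GPI-PLD and LacZ cells of the same time. Between 12 h and 6 h, it cannot be told apart from time in culture. Nothing in the labels tells separate cultures from repeat arrays of one culture. Replicate numbers in the text only name arrays.

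The factors work as a network. FOXA1 and FOXA2 are pioneer factors that bind liver enhancers in closed chromatin early in liver development and open them for other factors. HNF4A and HNF4G are orphan nuclear receptors that bind the same kind of site, NR5A2 (LRH-1) and NR1H4 (FXR, the bile acid receptor) control bile acid and cholesterol genes, ONECUT1 (HNF6) acts in liver and bile duct development, and PROX1 is needed for hepatoblasts to spread and holds back some nuclear receptors.

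None of the 6 measured factors passed the test in any comparison of GPI-PLD with LacZ or of 12 h with 6 h. The test was limma's moderated test on log2(signal + 63), with Benjamini-Hochberg adjustment over all features of the fit and a threshold of 0.05. FOXA1, FOXA2 and PROX1 were tested among 8102 genes, each read by its brightest probe set. HNF4G, NR5A2 and ONECUT1 lay below the filter on dim genes, a signal of 188 on the mean log2 scale, so their values come from a fit over all 22215 probe sets. HNF4G was just outside the filter, at a signal equivalent of 185, NR5A2 was at 153 and ONECUT1 at 78.1.

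The background differed sharply between the kinds of comparison. Among the 8102 genes, 0% passed for GPI-PLD against LacZ at 12 h and 0% at 6 h, where 7.21% and 4.64% had an unadjusted p under 0.05 by limma. With time, 9.68% of genes passed in GPI-PLD cells and 6.89% in LacZ cells, and over all probe sets the shares were 3.8% and 2.73%. By direction, 4.6% of genes were higher and 5.07% lower at 12 h in GPI-PLD cells, and 3.64% higher and 3.25% lower in LacZ cells. The shares with an unadjusted p under 0.05 for time were 22.8% in GPI-PLD cells and 20.2% in LacZ cells. The only pass among the virus comparisons was 1 gene, 0.0123%, for the difference of the virus effect between 12 h and 6 h, and it was none of the 6 factors. By limma's unadjusted p under 0.05, 1 of the 10 probe sets passed for the virus at 12 h, 0 at 6 h, 1 for time in GPI-PLD cells and 0 for time in LacZ cells. Both were NR5A2 probe sets, read in the fit over all 22215 probe sets. The unadjusted shares above are from the fit over 8102 genes and are not a like background for them.

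The cells expressed hepatocyte genes strongly. All 12 hepatocyte and hepatoblast markers passed the filter, ALB, which encodes albumin, ranged over the 16 arrays from 76827.2 to 101093.2, and AFP, the fetal plasma protein that hepatoma cells keep making, ranged from 63929.6 to 81631.4. The summed signal of those 12 markers ran from 490416 to 550514 in GPI-PLD cells at 12 h and from 476509 to 522506 in LacZ cells at 12 h. It ran from 474095 to 521576 in GPI-PLD cells at 6 h and from 452276 to 501143 in LacZ cells at 6 h. Array medians lay between 304.5 and 377.6. The brightest probe set of GPLD1, the human gene of this enzyme, differed between GPI-PLD and LacZ cells by 0.12 ± 0.32 on the log2 scale at 12 h and by 0.02 ± 0.32 at 6 h (SE, adjusted p = 0.964 and 0.9997), and did not pass. The other 4 GPLD1 probe sets did not pass either, with differences from -0.33 to 0.18 at 12 h and from -0.22 to 0.60 at 6 h, the highest in the dimmest of them. Whether these probe sets can read the viral transcript was not tested.

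**Figure D1:**
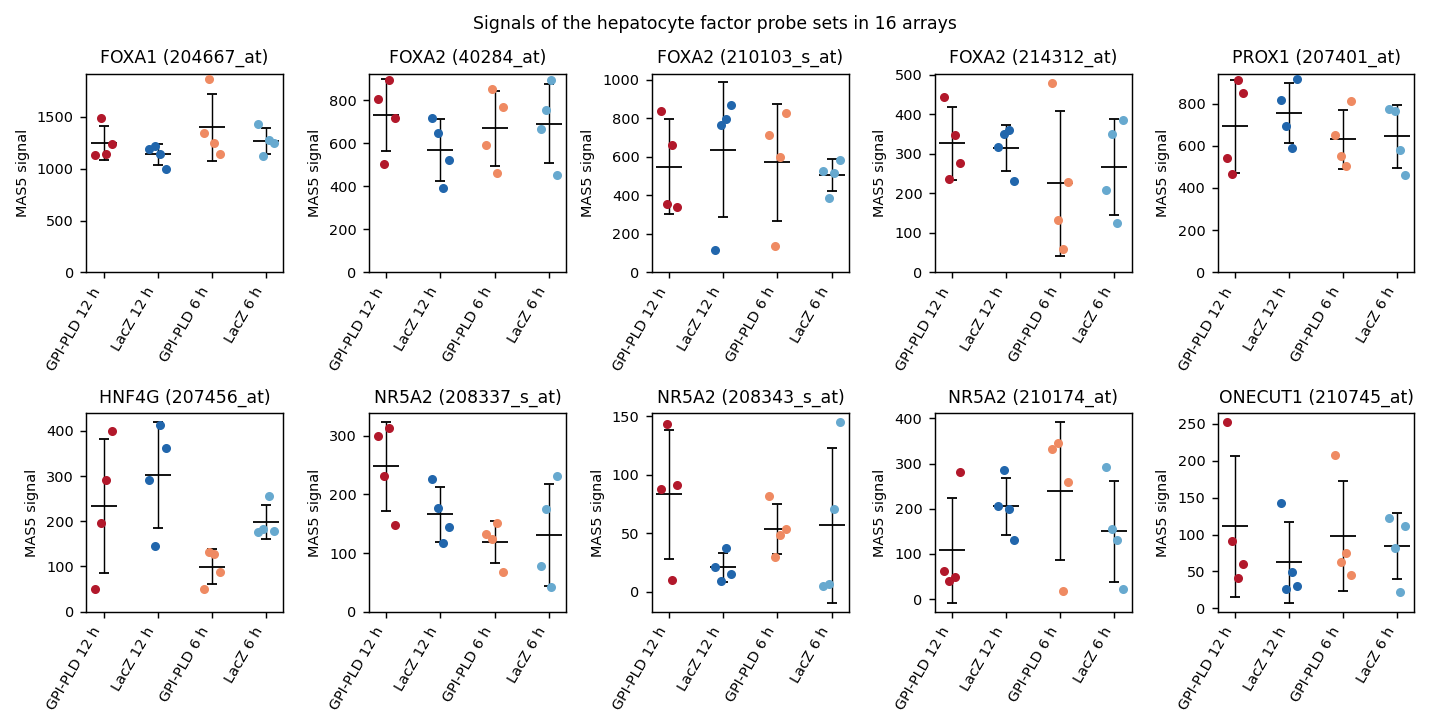
Signal (y axis, MAS5 units, linear) of each of the 10 probe sets in every array, with the 4 groups side by side; points are single arrays, and the bar and whiskers are the mean and SD of 4 arrays. FOXA1 kept between 996.3 and 1870.9 in all 16 arrays, while the NR5A2 probe set 208343_s_at ran from 4.7 to 144.6.

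FOXA1, a pioneer factor, had the most precise reading in the set. Its signal (204667_at) was 1128.5, 1486.4, 1139.5 and 1234.2 in 12 h GPI-PLD cells, against 1191.3, 1223.5, 1146.1 and 996.3 in 12 h LacZ cells. At 6 h it was 1345.6, 1870.9, 1249.1 and 1141.4 in GPI-PLD cells, against 1428, 1119.4, 1282 and 1246.4 in LacZ cells. All groups overlapped, and the 1 high array, at 1870.9, was in GPI-PLD cells at 6 h. The virus difference was 0.12 on the log2 scale at 12 h (95% interval -0.17 to 0.41, adjusted p = 0.879), which bounds the change between 0.888-fold and 1.33-fold. At 6 h it was also 0.12 (-0.17 to 0.41, adjusted p = 0.998), and without the high array it was -0.02. The time difference was -0.15 in GPI-PLD cells (-0.44 to 0.15, adjusted p = 0.591) and -0.15 in LacZ cells (-0.44 to 0.14, adjusted p = 0.637). The difference between the virus effects at 12 h and 6 h was 0.0018, with an interval from -0.41 to 0.41.

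FOXA2, the related pioneer factor that also acts in gut and pancreas, had 3 probe sets, and only the brightest entered the gene test. That probe set (40284_at) read 806.4, 503.6, 892.7 and 717 in 12 h GPI-PLD cells, against 715.7, 648, 391 and 523.2 in 12 h LacZ cells. GPI-PLD cells at 6 h had 592.3, 852.5, 462.7 and 766.8, against 668.5, 752.8, 895.1 and 452.2 in LacZ cells at 6 h. The groups overlapped at both times, although at 12 h the mean was 730 ± 167 in GPI-PLD cells and 569 ± 143 in LacZ cells (SD, n = 4 each). The virus difference was 0.33 at 12 h (-0.14 to 0.8, adjusted p = 0.774) and -0.04 at 6 h (-0.51 to 0.42, adjusted p = 0.998). The difference of these 2 values, 0.37 with an interval from -0.29 to 1.03, did not pass either (adjusted p = 0.808). With time, the difference was 0.12 in GPI-PLD cells (-0.34 to 0.59, adjusted p = 0.804) and -0.25 in LacZ cells (-0.72 to 0.22, adjusted p = 0.607).

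The other FOXA2 probe sets were noisier. Probe set 210103_s_at read 838.5, 353.9, 661.4 and 336.8 in 12 h GPI-PLD cells, against 113.3, 765.1, 794.1 and 866.8 in 12 h LacZ cells. At 6 h it read 714.4, 138.6, 597.9 and 828.3 in GPI-PLD cells, against 526.7, 387.7, 515.5 and 583.9 in LacZ cells. Single low arrays, 113.3 in LacZ cells at 12 h and 138.6 in GPI-PLD cells at 6 h, set much of the spread, and its virus differences were -0.02 at 12 h (-0.99 to 0.94) and -0.03 at 6 h (-1 to 0.94). Without the array at 113.3 the difference at 12 h was -0.6, and without the array at 138.6 the difference at 6 h was 0.46; neither passed the test.

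Probe set 214312_at read 443.3, 234.9, 348.3 and 275.9 in 12 h GPI-PLD cells, against 317, 349, 360.7 and 231.5 in 12 h LacZ cells. GPI-PLD cells at 6 h had 479.6, 131.5, 58.6 and 229.2, against 208.2, 349.5, 125.3 and 385.3 in LacZ cells at 6 h. The groups overlapped, with the widest spread in GPI-PLD cells at 6 h. In the same arrays where 210103_s_at was at its lowest, 214312_at read 317 and 131.5, and the brightest probe set read 715.7 and 852.5. The 3 probe sets of this gene did not move together: their virus differences at 12 h were 0.33, -0.02 and 0.03, and their time differences in GPI-PLD cells were 0.12, 0.06 and 0.62.

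PROX1, a homeobox factor of hepatocytes and lymphatic endothelium, was read by 1 probe set (207401_at). Its signal was 539.8, 466.7, 909.7 and 850.9 in 12 h GPI-PLD cells, against 817.8, 695.5, 588.7 and 917.5 in 12 h LacZ cells. At 6 h it was 652.4, 550.5, 501.9 and 814.1 in GPI-PLD cells, against 772.1, 763, 581.9 and 461.1 in LacZ cells. Every pair of groups overlapped, and the 2 higher GPI-PLD arrays at 12 h stood well apart from the 2 lower ones. The virus difference was -0.15 at 12 h (-0.59 to 0.3, adjusted p = 0.907) and -0.03 at 6 h (-0.47 to 0.42, adjusted p = 0.998). The time difference was 0.1 in GPI-PLD cells (-0.35 to 0.54, adjusted p = 0.843) and 0.22 in LacZ cells (-0.23 to 0.66, adjusted p = 0.645).

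HNF4G, the HNF4 paralogue best known from the gut and also present in liver, showed the only pair of groups that did not overlap. At 6 h its signal (207456_at) was 50.1, 131.1, 128.2 and 88.7 in GPI-PLD cells, against 175.6, 182.4, 255 and 178.3 in LacZ cells. All 4 GPI-PLD arrays thus lay below all 4 LacZ arrays, at a mean of 99.5 ± 38.2 in GPI-PLD cells and 198 ± 38.2 in LacZ cells (SD, n = 4 each). The fitted difference was -0.70 ± 0.39 on the log2 scale (SE), with a 95% interval from -1.52 to 0.11, and limma's unadjusted p was 0.0871 (adjusted p = 0.9997). It was the 1 of 10 probe sets whose groups at 6 h did not overlap, where 2.77% of all 22215 probe sets had groups that did not overlap in either direction and 1.54% were lower in all GPI-PLD arrays. None of the 10 had separate groups for the virus at 12 h or for time in either virus, where 3.8%, 10.4% (GPI-PLD cells) and 8.54% (LacZ cells) of all probe sets had. The fit shares 1 estimate of spread over all 4 groups, and the spread of this probe set was wider at 12 h.

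At 12 h the HNF4G signal was 49.5, 195.4, 292 and 398.8 in GPI-PLD cells, against 291.7, 144.2, 412.7 and 362.9 in LacZ cells. Here the groups overlapped, and the lowest array, at 49.5, was in GPI-PLD cells. The difference was -0.41 (-1.23 to 0.41, adjusted p = 0.862), and averaged over both times it was -0.56 (-1.14 to 0.02, limma's unadjusted p = 0.0576, adjusted p = 0.999). Without that lowest array the difference at 12 h was -0.003. The virus effects at 12 h and 6 h differed by 0.29 (-0.86 to 1.45). With time, the difference was 0.73 in GPI-PLD cells (-0.09 to 1.54, adjusted p = 0.386) and 0.43 in LacZ cells (-0.38 to 1.25, adjusted p = 0.738).

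NR5A2 (LRH-1), an orphan receptor that drives bile acid synthesis genes and the small partner NR0B2, had 3 dim probe sets. Probe set 208337_s_at, the one with the highest mean log2 signal, read 300.3, 231.4, 313.1 and 147.2 in 12 h GPI-PLD cells, against 225.8, 176.4, 117 and 144.1 in 12 h LacZ cells. GPI-PLD cells at 6 h had 133, 124.4, 151.3 and 68.3, against 78.2, 175.1, 41.4 and 230.9 in LacZ cells at 6 h. The GPI-PLD arrays at 12 h held the 3 highest values of all 16, and the fourth lay within the range of GPI-PLD cells at 6 h. The time difference in GPI-PLD cells was 0.76 ± 0.36 (SE), with limma's unadjusted p = 0.0461 and adjusted p = 0.303, and in LacZ cells it was 0.33 ± 0.36 (adjusted p = 0.796). The virus difference was 0.43 at 12 h (-0.32 to 1.17, adjusted p = 0.836) and 0.00068 at 6 h (-0.74 to 0.74).

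Probe set 208343_s_at of NR5A2 read 87.8, 143.6, 10.3 and 90.7 in 12 h GPI-PLD cells, against 21, 8.9, 37.6 and 14.8 in 12 h LacZ cells. At 6 h it read 81.5, 29.9, 48 and 53.2 in GPI-PLD cells, against 4.7, 6.6, 70.9 and 144.6 in LacZ cells. At 12 h 3 of the 4 GPI-PLD arrays lay above every LacZ array, and the fourth was at 10.3. The virus difference at 12 h was 0.72 ± 0.34 (SE), with limma's unadjusted p = 0.0467 and adjusted p = 0.733, and at 6 h it was 0.10 ± 0.34 (adjusted p = 0.9997). Its mean over all 16 arrays, 53.4, was below the constant of 63 added before the logarithm, and its size turned on that constant: with none, the difference at 12 h was 1.71, and with a constant 4 times larger it was 0.28, neither past the test.

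The third NR5A2 probe set, 210174_at, ran the other way at 12 h. It read 61.9, 40.2, 49.9 and 282 in 12 h GPI-PLD cells, against 205.2, 286.2, 198.4 and 129.7 in 12 h LacZ cells. GPI-PLD cells at 6 h had 333.3, 345.4, 17.3 and 258.8, against 293.2, 156.2, 131.1 and 21.4 in LacZ cells at 6 h. At 12 h 3 of the 4 GPI-PLD arrays were below every LacZ array and the fourth was close to the highest, so the groups overlapped. The virus difference was -0.81 at 12 h (-1.89 to 0.28, adjusted p = 0.797) and 0.43 at 6 h (-0.66 to 1.51, adjusted p = 0.9997). With time it differed by -0.76 in GPI-PLD cells (-1.85 to 0.32, adjusted p = 0.522), against 0.76 for 208337_s_at in the same arrays. The 3 probe sets of NR5A2 therefore gave virus differences of 0.43, 0.72 and -0.81 at 12 h, and no common direction.

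ONECUT1 (HNF6), the dimmest factor of the set, was read by 1 probe set (210745_at). Its signal was 252.1, 91.7, 40.9 and 60.4 in 12 h GPI-PLD cells, against 143, 26.4, 49.6 and 30.4 in 12 h LacZ cells. At 6 h it was 208.2, 62.8, 74.6 and 45.2 in GPI-PLD cells, against 123.1, 81.5, 22.5 and 112.2 in LacZ cells. The groups overlapped throughout, and in each group except LacZ cells at 6 h a single array stood well above the other 3. The virus difference was 0.42 at 12 h (-0.41 to 1.26, adjusted p = 0.862) and 0.08 at 6 h (-0.75 to 0.92, adjusted p = 0.9997). The time difference was 0.07 in GPI-PLD cells (-0.76 to 0.91) and -0.26 in LacZ cells (-1.1 to 0.57), with adjusted p = 0.957 and 0.873.

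**Figure D2:**
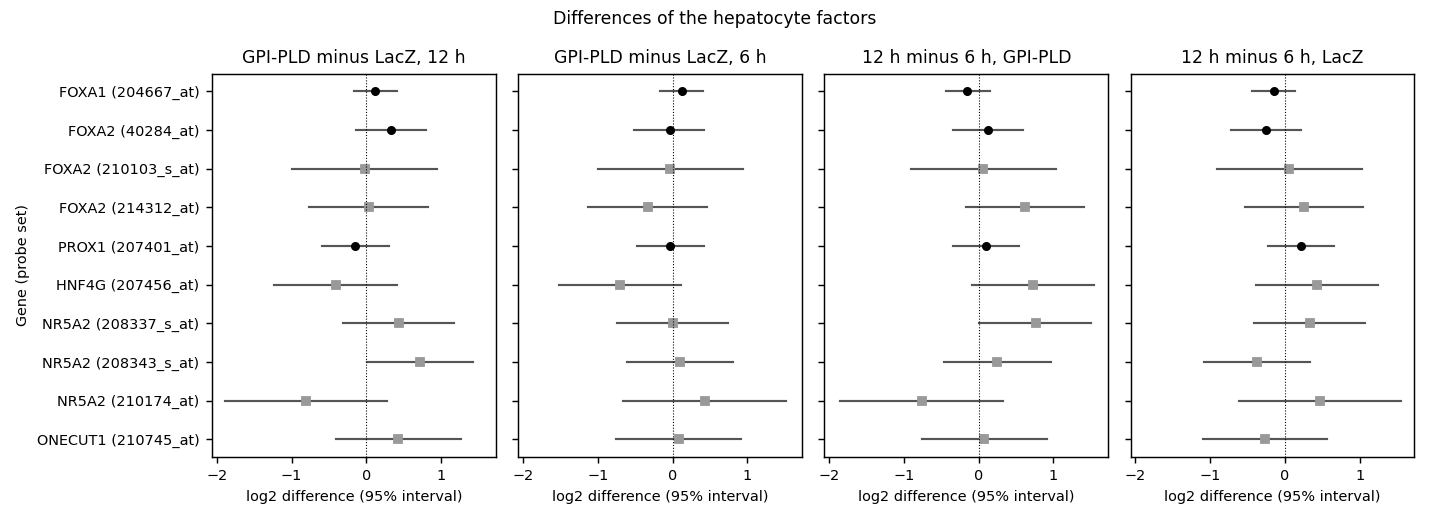
Log2 difference (x axis) with its 95% interval for each probe set (rows) in 4 comparisons; black circles are from the fit over 8102 genes, grey squares from the fit over 22215 probe sets. FOXA1 has the shortest intervals, 0.29 to each side at both times, and the NR5A2 probe set 210174_at the longest, 1.09 to each side.

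The precision differed among the factors. FOXA1 was known to 0.29 on the log2 scale to each side, PROX1 to 0.44 and the brightest FOXA2 probe set to 0.47. For the dim factors the half-interval was 0.82 for HNF4G, 0.83 for ONECUT1, and 0.74, 0.71 and 1.09 for the 3 NR5A2 probe sets. Over the 10 probe sets, the virus differences ran from -0.81 to 0.72 at 12 h, with 6 higher and 4 lower, and from -0.70 to 0.43 at 6 h, with 5 higher and 5 lower. The time differences ran from -0.76 to 0.76 in GPI-PLD cells, with 8 higher and 2 lower, and from -0.37 to 0.47 in LacZ cells, with 6 higher and 4 lower. In the fit over 8102 genes, 51.5% were higher for the virus at 12 h and 50.7% at 6 h. With time, 51.6% were higher in GPI-PLD cells and 50.6% in LacZ cells. FOXA2 and NR5A2 each count with 3 probe sets, so the 10 probe sets are not separate genes. The comparisons of one time or one virus share arrays, so these counts are not independent of each other.

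Genes around these factors were read from 6 lists chosen with earlier results of these data known: other liver transcription factors, nuclear receptor coregulators, target genes of HNF4A, of the FOXA factors and of FXR and LRH-1, and genes of mesenchymal transition and bile duct. Together they held 145 different tested genes, and some genes stood on more than 1 list. No list gene passed for GPI-PLD against LacZ at either time, where 0% of all genes did. With time, 18 of the 145 passed in GPI-PLD cells (13 higher and 5 lower, 12.4%), against 9.68% of all genes, and 10 passed in LacZ cells (9 higher and 1 lower, 6.9%), against 6.89% of all genes. Of these, 8 genes passed in both, which is 44.4% of the calls in GPI-PLD cells and 80% of those in LacZ cells. The like shares over all genes are not given here. For the difference of the virus effect between 12 h and 6 h, 0 of the 145 passed.

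**Figure D3:**
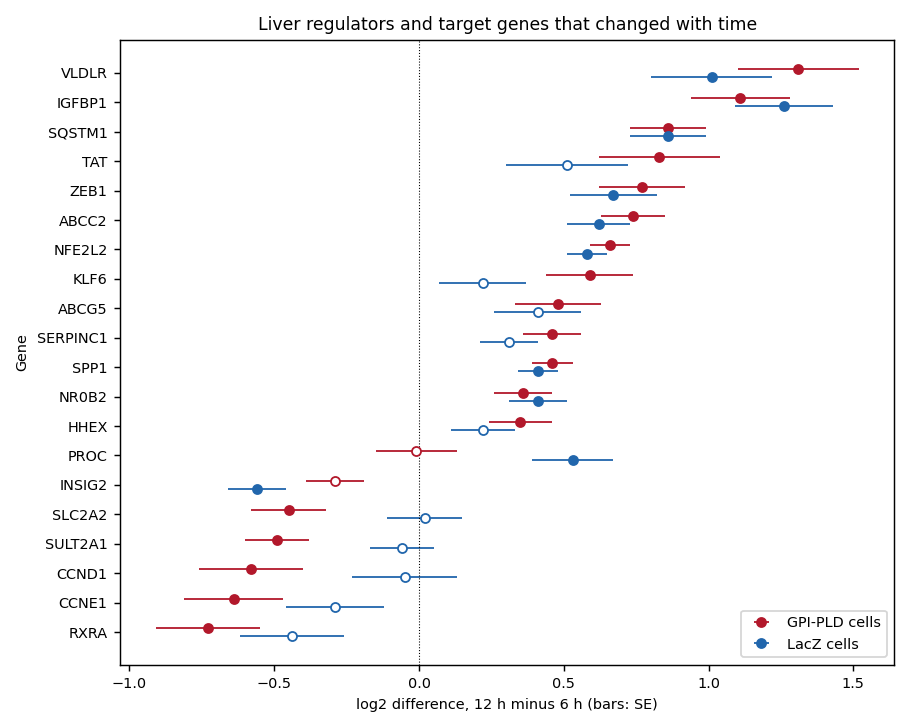
Log2 difference between 12 h and 6 h (x axis, bars are SE) for the 20 list genes that passed in at least 1 virus, with GPI-PLD cells in red above LacZ cells in blue; filled points passed the threshold of 0.05 and open points did not. VLDLR, at 1.31 in GPI-PLD cells, and IGFBP1, at 1.26 in LacZ cells, lie farthest to the right, and RXRA, at -0.73 in GPI-PLD cells, farthest to the left.

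Among other liver transcription factors, 5 of 40 tested passed with time in GPI-PLD cells (4 higher, 1 lower, 12.5%), against 9.68% of all genes. In LacZ cells 2 of 40 passed (both higher, 5%), against 6.89% of all genes. The median difference of the list was 0.02 in GPI-PLD cells and 0.12 in LacZ cells, beside 0.01 over all genes in each. NFE2L2 (NRF2), the regulator of antioxidant genes, rose to 7690.5 ± 339 at 12 h, against 4843.5 ± 210 at 6 h, in GPI-PLD cells (SD, n = 4 each; log2 difference 0.66 ± 0.07 SE, adjusted p = 6.08e-07). In LacZ cells NFE2L2 rose by 0.58 ± 0.07 (adjusted p = 4.61e-06). The 12 h arrays lay above the 6 h arrays in both. Over all tested genes, the groups did not overlap with time, in either direction, for 15.9% in GPI-PLD cells and 12.9% in LacZ cells.

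NR0B2 (SHP), the corepressor through which FXR shuts down bile acid synthesis, also rose in both. Its signal ran from 3682.7 to 4918.3 at 12 h, against 3144 to 3323.9 at 6 h, in GPI-PLD cells, and from 4193.4 to 4609.2 at 12 h, against 2666.9 to 3642.1 at 6 h, in LacZ cells. The groups did not overlap in either virus, and the log2 differences were 0.36 ± 0.1 in GPI-PLD cells (adjusted p = 0.0232) and 0.41 ± 0.1 in LacZ cells (adjusted p = 0.014). Both calls depended on single arrays: the first was lost without any of 4 arrays of that comparison (replicates 3 and 4 at either time, adjusted p up to 0.0879), and the second without LacZ 6 h replicate 4 (0.31, adjusted p = 0.0578).

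RXRA, the partner with which FXR binds DNA, was the only factor on that list that passed as lower. In GPI-PLD cells it fell to 825 ± 250 at 12 h, against 1377.5 ± 247 at 6 h (SD, n = 4 each; -0.73 ± 0.18 SE, adjusted p = 0.0114), and the highest array at 12 h, 1070.3, was just under the lowest at 6 h, 1080.1. In LacZ cells its difference was -0.44 ± 0.18 and did not pass (adjusted p = 0.169), although all arrays at 12 h lay below all at 6 h there too. A dimmer RXRA probe set differed by -0.25 in GPI-PLD cells and 0.17 in LacZ cells and did not pass, and the call was lost on the mean of both probe sets (-0.49, adjusted p = 0.0546) and without GPI-PLD 6 h replicate 4 (-0.63, adjusted p = 0.0521). KLF6, a zinc finger factor induced by injury, rose by 0.59 ± 0.15 in GPI-PLD cells (adjusted p = 0.0112), a call lost on the mean of its probe sets (0.44, adjusted p = 0.0504). A second KLF6 probe set rose by 0.67 in GPI-PLD cells and by 0.60 in LacZ cells (adjusted p = 0.0156 and 0.0423), and the dimmest differed by 0.06 in GPI-PLD cells. HHEX, a homeobox factor of early liver, rose by 0.35 ± 0.11 in GPI-PLD cells (adjusted p = 0.0447), a call that was lost in 17 of 27 alternatives, 11 of them the loss of a single array (adjusted p up to 0.147), and its second probe set differed by 0.06. In LacZ cells the differences of the brightest probe sets were 0.22 ± 0.15 for KLF6 and 0.22 ± 0.11 for HHEX, and neither passed.

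Of the factors that bind beside the members, none passed for the virus. The smallest p values were those of CEBPA, the CCAAT-binding factor of mature hepatocytes, at 12 h (1557.9 ± 365 in GPI-PLD cells and 1183.2 ± 131 in LacZ cells; SD, n = 4 each; adjusted p = 0.663), and of GATA4, an early partner of FOXA2, at 6 h (619 ± 123 in GPI-PLD cells and 398 ± 109 in LacZ cells; adjusted p = 0.998). The groups overlapped in both. Among 25 tested nuclear receptor coregulators, 0 passed in any comparison. For the virus the smallest p was that of TBL1XR1, a part of the NCoR corepressor complex, at 12 h (334 ± 81.9 in GPI-PLD cells and 494 ± 129 in LacZ cells, adjusted p = 0.688) and that of NRIP1 (RIP140), a corepressor of nuclear receptors, at 6 h (2790.7 ± 221 in GPI-PLD cells and 2352.1 ± 291 in LacZ cells, adjusted p = 0.998; SD, n = 4 each). By limma's unadjusted p under 0.05, 2 of the 25 did with time in GPI-PLD cells and 2 in LacZ cells. Over all genes, 22.8% did in GPI-PLD cells and 20.2% in LacZ cells. The lowest adjusted p of the coregulators with time was that of SIRT1, a deacetylase, at 0.0812 in GPI-PLD cells. NRIP1 had the lowest in LacZ cells (0.28 ± 0.12, adjusted p = 0.173).

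Among 38 tested target genes of HNF4A, 3 passed with time in GPI-PLD cells (7.89%), against 9.68% of all genes. In LacZ cells 1 passed (2.63%), against 6.89% of all genes. By limma's unadjusted p under 0.05, 10 of the 38 passed with time in each virus. Over all genes, 22.8% did so in GPI-PLD cells and 20.2% in LacZ cells. The median of the list was 0.05 in GPI-PLD cells and 0.07 in LacZ cells. SERPINC1 (antithrombin) rose in GPI-PLD cells to 3211.2 ± 224 at 12 h, against 2319.7 ± 159 at 6 h (SD, n = 4 each; 0.46 ± 0.1 SE, adjusted p = 0.00257). In LacZ cells it was 2915.7 ± 240 at 12 h, against 2340.3 ± 182 at 6 h, a difference of 0.31 ± 0.1 just short of the threshold (adjusted p = 0.0518), with no overlap, and the viruses' time effects differed by 0.15 ± 0.13, which did not pass. SULT2A1, which sulphates bile acids and steroids, fell in the same cells to 2050.8 ± 196 at 12 h, against 2892.6 ± 199 at 6 h (-0.49 ± 0.11, adjusted p = 0.00591). Its difference was -0.06 in LacZ cells, and the test of the difference between the viruses gave -0.43 ± 0.16, which did not pass.

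PROC (protein C, an anticoagulant) had a time difference of -0.01 in GPI-PLD cells, and rose by 0.53 ± 0.14 in LacZ cells (adjusted p = 0.0218). The difference between the viruses was -0.54 ± 0.2 and did not pass, and the call in LacZ cells was lost without any of 4 arrays (LacZ 12 h replicates 2 and 3 and LacZ 6 h replicates 1 and 4, adjusted p up to 0.0852). TAT, the tyrosine-degrading enzyme and a classical hormone-induced liver gene, rose in GPI-PLD cells to 616 ± 98.5 at 12 h, against 316 ± 2 at 6 h (SD, n = 4 each; 0.83 ± 0.21 SE, adjusted p = 0.0129). Its difference in LacZ cells was 0.51 ± 0.21 (adjusted p = 0.174). A dim second TAT probe set differed by 0.2 and did not pass, and on the mean of both probe sets the gene's difference was 0.52 (adjusted p = 0.191).

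For the virus the smallest p among the HNF4A target genes was that of APOC3, an inhibitor of triglyceride clearance, at 12 h. Its signal ran from 2603.6 to 3191.9 in GPI-PLD cells, against 3196.5 to 3536.8 in LacZ cells, so the groups did not overlap, but only just, and the difference was -0.25 ± 0.12 (SE, adjusted p = 0.685). The gene of smallest p at 6 h was F12, coagulation factor XII, with 358 ± 44 in GPI-PLD cells and 222 ± 97 in LacZ cells (SD, n = 4 each, adjusted p = 0.998). At 12 h, 3.99% of the 8102 genes had groups of GPI-PLD and LacZ arrays that did not overlap.

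The FOXA target genes had 4 of 22 past the threshold with time in GPI-PLD cells (18.2%), against 9.68% of all genes. In LacZ cells 2 of 22 passed (9.09%), against 6.89% of all genes. The list medians were 0.05 in GPI-PLD cells and 0.07 in LacZ cells. TAT, also on the HNF4A list, was among the calls in GPI-PLD cells, and its call was lost on averaged probe sets (adjusted p = 0.191). IGFBP1, the liver's insulin-repressed binding protein of insulin-like growth factors, moved most. In GPI-PLD cells it rose to 29040.7 ± 4195.5 at 12 h, against 13377.7 ± 1372.3 at 6 h (SD, n = 4 each), a 2.16-fold difference (adjusted p = 0.000317). In LacZ cells it rose to 31196.4 ± 2669.5 at 12 h, against 13510.7 ± 4279 at 6 h, a 2.39-fold difference (adjusted p = 9.16e-05). The viruses' time effects differed by -0.15 ± 0.25, which did not pass. SLC2A2 (GLUT2), the glucose transporter of hepatocytes, fell by 0.45 ± 0.13 with time in GPI-PLD cells (adjusted p = 0.0246), against a difference of 0.02 ± 0.13 in LacZ cells. The difference between the viruses, -0.47 ± 0.18, did not pass (adjusted p = 0.514). The call in GPI-PLD cells was lost on leaving out any of 4 arrays (GPI-PLD 12 h replicates 2 and 3 and GPI-PLD 6 h replicates 1 and 3, adjusted p up to 0.0807).

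SLC2A2 also had the smallest p of the list for the virus at 12 h. Its signal ran from 927.8 to 1419 in GPI-PLD cells, against 1435.8 to 1779.7 in LacZ cells, with no overlap, and the difference of -0.48 ± 0.13 had an unadjusted p of 0.000905 by limma and an adjusted p of 0.369. At 6 h the smallest was that of AGR2, a secretory-pathway protein, with 529 ± 175 in GPI-PLD cells and 689 ± 117 in LacZ cells (SD, n = 4 each, adjusted p = 0.998), and its groups overlapped.

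ABCC2 (MRP2), the canalicular pump that exports bilirubin conjugates, stood on the FOXA list and on the FXR and LRH-1 list. In GPI-PLD cells it rose to 5197.5 ± 967 at 12 h, against 3041.8 ± 99.3 at 6 h (SD, n = 4 each; 0.74 ± 0.11 SE, adjusted p = 7.53e-05). In LacZ cells it rose to 4415.1 ± 497 at 12 h, against 2853.6 ± 284 at 6 h (0.62 ± 0.11, adjusted p = 0.000836). The groups did not overlap in either virus, and the test of the difference between the viruses, 0.13 ± 0.16, did not pass.

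Promoter windows, 250 bases before to 50 after a gene's start, are shown for a factor and a target because the members bind or regulate at such sites. The RefSeq table used (GRCh38.p14) held windows for 3 of the 6 factors, FOXA1, NR5A2 and ONECUT1, and for 15 of the 20 list genes that passed with time. Each of their 31 windows was searched on both strands for 3 motifs. These were TGTTTAC, a core bound by FOXA proteins, AAGGNCA, and CAAAGTCCA, an HNF4 type of site. AAGGNCA, with any base at N, is looser than the extended half-site bound by NR5A2. A match to it need not be a site for that factor, and this holds for the matches shown in NR5A2 and ABCC2. TGTTTAC lay in 2 of the 31 windows and in 3.42% of all 35116 windows. AAGGNCA lay in 6 of the 31 and in 17.3% of all, and CAAAGTCCA in 0 of the 31 and in 0.384% of all. Several windows can belong to 1 gene and overlap. The 3 motifs did not overlap in the windows shown, where capitals mark the matched letters, all of them on the opposite strand. The first NR5A2 window (chr1:200027460-200027759, plus strand) holds an AAGGNCA match that begins at base 42 after the start, the second (chr1:200042341-200042640, plus strand) holds a TGTTTAC match that begins 105 bases before it, and the ABCC2 window (chr10:99782390-99782689, plus strand) holds AAGGNCA matches that begin 167 and 149 bases before it.
NR5A2 first start: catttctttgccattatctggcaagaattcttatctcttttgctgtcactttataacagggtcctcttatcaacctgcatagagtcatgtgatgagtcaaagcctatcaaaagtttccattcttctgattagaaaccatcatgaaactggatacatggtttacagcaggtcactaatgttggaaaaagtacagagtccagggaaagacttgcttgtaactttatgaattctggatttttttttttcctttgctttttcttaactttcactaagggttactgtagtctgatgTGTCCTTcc
NR5A2 second start: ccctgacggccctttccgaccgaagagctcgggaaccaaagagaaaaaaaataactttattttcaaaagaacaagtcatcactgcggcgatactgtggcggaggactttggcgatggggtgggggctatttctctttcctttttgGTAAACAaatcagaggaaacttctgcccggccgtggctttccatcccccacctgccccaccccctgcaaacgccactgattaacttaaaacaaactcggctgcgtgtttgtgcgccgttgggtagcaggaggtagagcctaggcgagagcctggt
ABCC2: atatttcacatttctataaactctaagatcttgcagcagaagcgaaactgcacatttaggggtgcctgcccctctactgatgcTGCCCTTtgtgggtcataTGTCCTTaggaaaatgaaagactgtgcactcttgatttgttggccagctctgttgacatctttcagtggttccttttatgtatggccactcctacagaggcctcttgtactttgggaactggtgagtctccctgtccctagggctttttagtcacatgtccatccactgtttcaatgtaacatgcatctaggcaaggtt
A match is a description of the letters in these windows, and no binding was measured. ABCC2 rose with time in both viruses, and NR5A2 itself passed in neither.

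The FXR and LRH-1 target genes had the most calls of any list by count. With time, 8 of 34 passed in GPI-PLD cells (5 higher and 3 lower, 23.5%), against 9.68% of all genes. In LacZ cells 5 of 34 passed (4 higher and 1 lower, 14.7%), against 6.89% of all genes. By share, the 9 tested mesenchymal and bile duct genes had 22.2% in each virus. The FXR and LRH-1 list shared 7 tested genes with the HNF4A list and 5 with the FOXA list. The list as a whole did not shift one way, with a median of -0.1 in GPI-PLD cells and 0.07 in LacZ cells beside 0.01 over all genes. VLDLR, a lipoprotein receptor, rose in GPI-PLD cells to 770 ± 145 at 12 h, against 275 ± 73.6 at 6 h (SD, n = 4 each), a 2.49-fold difference (adjusted p = 0.000198). In LacZ cells it rose to 702 ± 153 at 12 h, against 314 ± 55 at 6 h, a 2.01-fold difference (adjusted p = 0.00393). SQSTM1 (p62), an autophagy adaptor that is also a known NRF2 target, rose by 0.86 ± 0.13 in GPI-PLD cells (adjusted p = 9.25e-05) and by 0.86 ± 0.13 in LacZ cells (adjusted p = 0.00011).

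Of that list, the genes that passed as lower with time were SULT2A1, CCNE1 and CCND1 in GPI-PLD cells and INSIG2 in LacZ cells. INSIG2, which holds back cholesterol synthesis, had a time difference of -0.29 ± 0.1 in GPI-PLD cells that did not pass. In LacZ cells it fell to 2637.7 ± 209 at 12 h, against 3920.9 ± 212 at 6 h (SD, n = 4 each; -0.56 ± 0.1 SE, adjusted p = 0.001). It also had the smallest p of the list for the virus at 6 h, with 2430.7 to 3293.6 in GPI-PLD cells, against 3730.7 to 4201.2 in LacZ cells (-0.38 ± 0.1, limma's unadjusted p = 0.00136, adjusted p = 0.855). The cyclins that LRH-1 is known to induce, CCNE1 and CCND1, fell with time in GPI-PLD cells by 0.64 ± 0.17 (adjusted p = 0.0147) and 0.58 ± 0.18 (adjusted p = 0.0454). ABCG5, a sterol exporter, rose there by 0.48 ± 0.15 (adjusted p = 0.0473). In LacZ cells the differences were -0.29 ± 0.17 for CCNE1, -0.05 ± 0.18 for CCND1 and 0.41 ± 0.15 for ABCG5, and none passed (adjusted p = 0.348, 0.93 and 0.116). These last calls were fragile: that of CCNE1 was lost without GPI-PLD 12 h replicate 3 (-0.56, adjusted p = 0.0519) and without GPI-PLD 6 h replicate 2 (-0.54, adjusted p = 0.0664). The call of CCND1 was lost in 12 of 27 alternatives, 7 of them single arrays (adjusted p up to 0.182), and that of ABCG5 in 15, 10 of them single arrays (adjusted p up to 0.155). For none of these 4 genes did the difference between the viruses pass.

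For mesenchymal transition and bile duct, 9 genes were tested. In each virus 2 of the 9 passed as higher at 12 h (22.2%) and 0 passed as lower. The share of all genes that passed, in either direction, was 9.68% for GPI-PLD cells and 6.89% for LacZ cells. By sign alone, GPI-PLD cells had 6 positive time differences and 3 negative ones among the 9, and LacZ cells had 5 and 4. SPP1 (osteopontin), a secreted protein of bile duct and hepatoma cells, rose to 22151.8 ± 1489 at 12 h, against 16070 ± 645 at 6 h, in GPI-PLD cells (SD, n = 4 each; 0.46 ± 0.07 SE, adjusted p = 3.99e-05), and by 0.41 ± 0.07 in LacZ cells (adjusted p = 0.000196). ZEB1, a repressor of epithelial genes, rose by 0.77 ± 0.15 in GPI-PLD cells (adjusted p = 0.00179) and by 0.67 ± 0.15 in LacZ cells (adjusted p = 0.00717). Its 2 dimmer probe sets differed by 0.35 and 0.83 in GPI-PLD cells and by 0.31 and 0.04 in LacZ cells and did not pass, and on the mean of its probe sets the call in LacZ cells was lost (0.34, adjusted p = 0.376). None of the 9 passed for the virus. The smallest p was that of FN1 (fibronectin) at 12 h, with 67388.2 ± 10122.5 in GPI-PLD cells and 59155.1 ± 2174.1 in LacZ cells (adjusted p = 0.702), and that of VIM (vimentin, a mesenchymal filament) at 6 h, with 227 ± 93.7 in GPI-PLD cells and 129 ± 60.8 in LacZ cells (adjusted p = 0.998; SD, n = 4 each). The summed signal of the 6 bile duct markers on the arrays, SPP1 among them and its brightest, ran from 35384 to 39231 in GPI-PLD cells at 12 h, against 33189 to 35541 in GPI-PLD cells at 6 h, and from 37234 to 41094 in LacZ cells at 12 h, against 31332 to 35960 in LacZ cells at 6 h. Their part in these results was not tested.

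No list gene passed for the virus effect averaged over both times or for its difference between 12 h and 6 h. For the average, the gene of smallest p was CEBPA (0.22) among the other factors, CARM1, an arginine methyltransferase (0.21), among the coregulators and F8, coagulation factor VIII (0.54), among the HNF4A targets. It was SLC2A2 (-0.25) among the FOXA targets, INSIG2 (-0.24) among the FXR and LRH-1 targets and VIM (0.49) among the mesenchymal and bile duct genes, and each had an adjusted p of 0.997. For the difference it was STAT3, a factor of the acute phase response (0.39), NRIP1 (-0.47), APOC3 on both of its lists (-0.47), SLC2A2 (-0.47) and FN1 (0.30), with adjusted p between 0.468 and 0.57. The second probe set of STAT3 differed by 0.0029. At 12 h APOC3 also had the smallest p for the virus among the FXR and LRH-1 targets.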

How the data were processed

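The authors deposited MAS5 signal intensity for 22283 probe sets per array (MAS5 per the submitters' processing notes). The labels give 10 microgram of total RNA for each array. The arrays' trimmed means (2% trimmed) were 1000.3 to 1000.4, so signals were already scaled. Leaving out 68 controls, 19065 probe sets had 1 gene symbol, 1043 had several and 2107 none in the platform annotation. Signals were taken as log2(signal + 63), 63 being the 20th percentile of all signals. A gene was read by its single-symbol probe set of highest mean log2, and kept at or above the 40th percentile of probe sets. limma 3.58.1 (R 4.3.3) fitted 4 group means to 16 arrays with trended, robust variances (degrees of freedom 12 residual, 10.5 prior at the median), adjusted within each of 6 comparisons. p-values measure the spread between these arrays, which may be technical. The number of arrays limits the precision. The members and lists were chosen with earlier results of these data known. The text names the members, and of each list the genes that passed or, where none did in a comparison, the gene of smallest p.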

Additional observations from a re-analysis of the deposited data

Results flagged for a closer look

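The 10 probe sets gave 40 groups of 4 arrays, and in 4 of these groups 1 array stood far from the other 3 by Dixon's 95% limit on the gap over the group's range. Chance marks about 1 group in 20. The FOXA2 probe set 210103_s_at was 113.3 in 1 array of LacZ cells at 12 h, where the others read 765.1 to 866.8. The NR5A2 probe set 210174_at was 282 in 1 array of GPI-PLD cells at 12 h, where the others read 40.2 to 61.9, and without that array its virus difference at 12 h was -1.21 in place of -0.81 (adjusted p = 0.64). The same probe set was 17.3 in 1 array of GPI-PLD cells at 6 h, where the others read 258.8 to 345.4, and without it the virus difference at 6 h was 0.98 in place of 0.43 (adjusted p = 0.999). HNF4G (207456_at) was 255 in 1 array of LacZ cells at 6 h, where the others read 175.6 to 182.4, and without it the virus difference at 6 h was -0.61 in place of -0.70 (adjusted p = 0.972).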

How the results depend on the processing

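No member passed under any alternative run. No paired analysis was possible because arrays carry no replicate number in the labels. The spread between arrays sets the limits: half-intervals of the factors below the filter were 0.71 to 1.09 on the log2 scale. The lists' calls moved more. For time in LacZ cells the target genes of HNF4A had 3 calls in place of 1 under quantile normalization, 2 with the 60th percentile filter, averaged probe sets or array weights, 0 with all probe sets tested, and 0 to 2 without single arrays (0 without LacZ 12 h replicates 2 or 3 or LacZ 6 h replicates 1 or 4, and 2 without LacZ 12 h replicate 4 or without GPI-PLD 12 h replicate 2). The mesenchymal and bile duct genes had 1 call in place of 2 with averaged probe sets, and the other liver transcription factors had 1 to 3 without single arrays (1 without LacZ 6 h replicate 4). In GPI-PLD cells the other liver transcription factors had 3 calls in place of 5 with averaged probe sets, with eBayes lacking trend and robust fitting or with all probe sets tested, and 2 to 5 without single arrays, with 2 without GPI-PLD 6 h replicate 4 and 3 without replicate 3. There the target genes of HNF4A had 6 in place of 3 with array weights, those of FXR and LRH-1 had 5 in place of 8 with all probe sets tested and 5 to 9 without single arrays (fewest without GPI-PLD 6 h replicate 2 or 12 h replicate 3), and the coregulators had 0 to 2 (2 without GPI-PLD 6 h replicate 1, 1 without GPI-PLD 12 h replicate 3). The cause was not tested.

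Several member differences near 0 changed sign, none of them past the test. For FOXA1 the difference of the virus effect was -0.0011 with the constant 4 times larger, -0.02 with array weights and -0.08 to 0.14 without single arrays, and the virus effect at 6 h was -0.02 to 0.20 without single arrays. For FOXA2 210103_s_at the virus effect at 6 h was 0.03 with the larger constant, that at 12 h was 0.04 with no constant and 0.01 with array weights, and the difference of the virus effect was -0.01 under quantile normalization and -0.1 with the larger constant. Its time effect was -0.0029 in GPI-PLD cells under quantile normalization and -0.01 in LacZ cells with no constant. Without single arrays its virus effect was -0.6 to 0.2 at 12 h, -0.26 to 0.46 at 6 h and -0.31 to 0.22 on average, its difference -0.57 to 0.23, and its time effect -0.42 to 0.29 in GPI-PLD cells and -0.17 to 0.63 in LacZ cells. FOXA2 214312_at at 12 h was -0.05 under quantile normalization, and without single arrays it was -0.11 to 0.14 at 12 h, -0.71 to 0.01 at 6 h and -0.34 to 0.02 on average. With FOXA2's probe sets averaged, its average virus effect was -0.01 and its time effect in LacZ cells 0.02. Without single arrays its brightest probe set gave a virus effect of -0.21 to 0.11 at 6 h and a time effect of -0.03 to 0.27 in GPI-PLD cells. NR5A2 208337_s_at at 6 h was -0.01 with 75th percentile scaling, -0.02 with the larger constant and -0.26 to 0.24 without single arrays. Without single arrays NR5A2 208343_s_at was -0.12 to 0.42 at 6 h and NR5A2 210174_at -0.39 to 0.09 on average. ONECUT1 had a time effect in GPI-PLD cells of -0.04 under quantile normalization and -0.26 to 0.36 without single arrays, and a virus effect at 6 h of -0.2 to 0.24. PROX1 had a difference of the virus effect of 0.0039 with array weights and -0.26 to 0.03 without single arrays, virus effects of -0.29 to 0.01 at 12 h and -0.16 to 0.07 at 6 h, and a time effect of -0.04 to 0.25 in GPI-PLD cells. Scaling alternatives moved the median of all genes by less than 0.1.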
